A study of Mus musculus with 20 samples.

Results

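The genes described here are H19, Igf2, Afp, Gpc3, Cd24a, Dlk1 and Igf2bp3, which the liver expresses before birth and largely silences afterwards. They were the 7 rows with these gene symbols among the 38924 genes of the expression table, and 4 of the 7 (H19, Afp, Gpc3 and Cd24a) passed the filter on low values, FPKM (fragments per kilobase of transcript and per fixed number of mapped fragments) above 0.5 in at least 5 of 20 libraries, which left 14524 genes. The genes had been chosen by their FPKM values in these 20 libraries, and which comparison was looked at is not recorded, so their levels and differences are given as a description in every comparison. Where counts of members past the thresholds of the fit over all genes are given, they are descriptions too and support nothing.

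The series profiled poly(A) RNA from the livers of 20 male mice, 5 in each of 4 groups. Wild type (WT) C57/BL6 mice (C57BL/6J in the study's methods) and TSP-1 knockout mice, here TSP-1 null, a germline knockout of the matrix protein thrombospondin-1 in every tissue, were bought at 5 weeks of age, acclimated for 1 week and given 1 of 2 diets for 12 weeks. The diets were a control chow and CDAHFD, a high fat diet without choline and with limited methionine. CDAHFD takes its protein from free amino acids and brings on fatty liver, inflammation and fibrosis. Each library was made from 1 mouse and held between 15641545 and 23276322 fragments. All 10 hepatocyte markers looked up passed the filter, and their summed FPKM lay between 29742 and 51579 in every library, so the tissue label and the data matched. Thbs1, the gene for TSP-1, went against the genotype labels on the control diet: it ranged from 0.058 to 0.326 FPKM in the WT libraries and from 0.986 to 1.90 FPKM in those labelled TSP-1 null. On CDAHFD the ranges overlapped (3.46 to 6.10 and 3.05 to 4.398 FPKM). The genotype groups below are therefore the groups as labelled.

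H19 is an imprinted long noncoding RNA, read from the maternal chromosome, and Igf2, its neighbour, is read from the paternal chromosome and encodes a fetal growth factor. Afp encodes alpha-fetoprotein, the main serum protein of the fetus and a marker of liver cancer, and Gpc3 encodes glypican-3, a heparan sulfate proteoglycan of the cell surface used in the same way. Cd24a encodes a small surface glycoprotein of progenitor and biliary cells, Dlk1 a surface protein of hepatoblasts, the bipotent progenitors of the fetal liver, and Igf2bp3 an RNA-binding protein that binds the Igf2 message. In mouse liver H19, Afp and Gpc3 are known to be held down together after birth and to come back together when the liver regenerates or forms tumours.

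H19 also carries a microRNA. The hairpin of Mir675, 84 bases long, lies in exon 1 of the H19-202 transcript, 996 bases from the start of the gene, and is in an exon in 3 of 7 H19 transcripts of the GENCODE M21 annotation. Its mature arms are shown because H19, of the members with fragments in every group, is the one whose mean FPKM differed most between the diets as a ratio, and they are the short RNAs cut from it; capitals mark the seed, bases 2 to 8, and the sequences are RefSeq's on GRCm38.p6, minus strand.
mmu-miR-675-5p: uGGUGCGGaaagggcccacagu
mmu-miR-675-3p: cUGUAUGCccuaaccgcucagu
The arms lie at chr7:142577112-142577133 and chr7:142577078-142577099. Neither seed occurs in another of the 1738 mature mouse miRNAs of the same table. The row of Mir675 held 0 fragments in all 20 libraries, which were made from long poly(A) RNA, so they say nothing of the level of the mature miRNA.

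The control regions of 2 members are shown to set side by side a promoter poor in G and C and one rich in them. No link between these sequences and the diet differences was tested. RefSeq promoter sequences were matched for 5 of the 7 members (Igf2, Afp, Gpc3, Dlk1 and Igf2bp3, with 8 starts in all). The 250 bases before the start are printed, and capitals mark 5 short motifs looked for on both strands. The TATA box was searched as TATAAA. The GC box was searched as GGGCGG, and the CCAAT box by its own letters. The forkhead element was searched as TGTTTAC. The nuclear receptor element was searched as GGGTCA.
Afp, chr5:90490464-90490713, plus strand, GRCm38.p6: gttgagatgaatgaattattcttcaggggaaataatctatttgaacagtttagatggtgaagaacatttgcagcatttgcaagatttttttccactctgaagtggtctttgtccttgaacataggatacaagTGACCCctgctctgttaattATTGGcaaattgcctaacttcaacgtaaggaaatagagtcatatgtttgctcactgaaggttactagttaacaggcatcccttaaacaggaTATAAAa
Gpc3, chrX:52613975-52614224, minus strand, GRCm38.p6: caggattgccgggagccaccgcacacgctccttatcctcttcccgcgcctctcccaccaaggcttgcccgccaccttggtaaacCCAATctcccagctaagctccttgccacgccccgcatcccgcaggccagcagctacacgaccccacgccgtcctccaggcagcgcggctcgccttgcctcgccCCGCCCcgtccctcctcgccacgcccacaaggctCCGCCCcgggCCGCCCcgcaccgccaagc
The Afp sequence was 36% G and C and held the TATA box at -7, the CCAAT box on the other strand at -98 and the nuclear receptor element on the other strand at -118, counted from the annotated start, with no overlap between them. The Gpc3 sequence was 71.6% G and C and held the GC box on the other strand at -63, -29 and -19 and the CCAAT box at -166. These are matches of letters and not sites shown to be bound. Of all 32851 mouse windows of this length, 12.4% held the TATA box, 32.7% the GC box, 33.8% the CCAAT box, 3.17% the forkhead element and 11.6% the nuclear receptor element. The forkhead element was present in the Dlk1 window alone among the members, at -87 and -67.

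H19 (ENSMUSG00000000031.9, a lincRNA at chr7:142575529-142578143, minus strand) was close to absent on the control diet and plainly present on CDAHFD. The 5 WT libraries on the control diet read 0.054, 0.051, 0.071, 0.172 and 0 FPKM, and the 5 TSP-1 null libraries 0.143, 0, 0.068, 0.026 and 0.042 FPKM, which rest on 0 to 7 fragments each. On CDAHFD the WT libraries read 1.504, 2.66, 3.56, 2.03 and 4.05 FPKM and the TSP-1 null libraries 2.98, 3.8, 3.75, 1.77 and 3.87 FPKM. Every CDAHFD library was thus above every control library, and the 2 genotypes overlapped on both diets. The mean FPKM was 39.7 times that of the control diet in WT and 58.0 times in TSP-1 null, and the ratio of fragments was 41.3 (95% exact interval 24.9 to 74.3, for counting error only) in WT and 57.2 (33.2 to 108) in TSP-1 null. By mean FPKM, H19 moved from rank 16889 of 21470 expressed genes in WT on the control diet to rank 9516 of 23521 on CDAHFD, so that it reached the middle of the expressed genes and not the top.

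Igf2 (ENSMUSG00000048583.10, chr7:142650766-142666816, minus strand), which shares its imprinted domain and its enhancers with H19, stayed near the bottom of the scale. The WT libraries read 0.09, 0.126, 0.088, 0.112 and 0.105 FPKM on the control diet and 0.312, 0.204, 0.181, 0.131 and 0.131 FPKM on CDAHFD. The TSP-1 null libraries read 0.068, 0.031, 0.093, 0.055 and 0.078 FPKM and 0.135, 0.179, 0.194, 0.23 and 0.202 FPKM. The diets did not overlap in either genotype, yet the mean was only 1.84 times higher in WT and 2.89 times in TSP-1 null. H19 and Igf2 lie next to each other, and on CDAHFD the mean FPKM of H19 was 2.76 ± 1.051 (SD, n = 5) in WT against 0.192 ± 0.0743 for Igf2, on a scale that corrects for length. No Igf2 library passed FPKM 0.5, so Igf2 was not among the genes tested. Igf2 also shared 3566 of its 5760 sequences of 31 bases with Gm49394, an overlapping gene model of GENCODE M21. Gm49394 is not among the features of the expression table that overlap Igf2. Those are Mir483 and Igf2os, with 1 and 7 fragments over all 20 libraries. How reads over overlapping features were counted is not stated.

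Afp (ENSMUSG00000054932.3, chr5:90490714-90508907, plus strand) was the only member besides Cd24a and Gpc3 with more than a trace of RNA on the control diet. The libraries read 0.33, 0.632, 0.673, 0.335 and 0.745 FPKM in WT and 0.372, 0.338, 0.359, 0.42 and 0.759 FPKM in TSP-1 null. On CDAHFD they read 3.13, 1.68, 2.55, 2.72 and 2.55 FPKM in WT and 1.85, 2.33, 2.21, 2.09 and 2.36 FPKM in TSP-1 null. The diets did not overlap, and the means were 4.65 and 4.82 times higher on CDAHFD, a ratio close to the same in both genotypes. Among CDAHFD mice the coefficient of variation of Afp was 20.9% (WT) and 9.71% (TSP-1 null), below the 38.1% and 27.7% of H19.

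Cd24a (ENSMUSG00000047139.8, chr10:43579169-43584262, plus strand) was the most abundant member on each diet. The control libraries read 1.23, 0.661, 0.651, 0.771 and 0.94 FPKM in WT and 0.775, 0.388, 0.619, 0.828 and 1.17 FPKM in TSP-1 null. On CDAHFD they read 19.4, 21.25, 13.0, 18.996 and 16.4 FPKM in WT and 10.4, 9.06, 13.7, 12.3 and 13.4 FPKM in TSP-1 null. Every CDAHFD library was above every control library, with means 20.9 and 15.6 times higher, and on CDAHFD 3 of the 5 TSP-1 null libraries lay below all WT libraries. By mean FPKM in WT it moved from rank 10913 on the control diet to rank 2874 on CDAHFD. Of its 2548 sequences of 31 bases, 127 also occur in the processed copies Gm6212 and Gm15352.

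Gpc3 (ENSMUSG00000055653.7, chrX:52272426-52613950, minus strand) differed least among the 4 genes that passed the filter. The control libraries read 0.415, 0.691, 0.188, 0.542 and 0.354 FPKM in WT and 0.306, 0.36, 0.477, 0.256 and 0.478 FPKM in TSP-1 null. On CDAHFD they read 1.91, 0.848, 0.88, 0.839 and 1.38 FPKM in WT and 0.522, 0.808, 0.537, 1.053 and 0.702 FPKM in TSP-1 null. The diets did not overlap in either genotype, although the lowest TSP-1 null library on CDAHFD (0.522) was close to the highest on the control diet (0.478). The means were 2.67 and 1.93 times higher on CDAHFD, a direction that turned in TSP-1 null under quantile normalization of all libraries. Of the genotypes, 4 of the 5 TSP-1 null libraries on CDAHFD lay below all WT libraries on that diet.

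Dlk1 and Igf2bp3 rested on a handful of fragments. Dlk1 (ENSMUSG00000040856.11, chr12:109452823-109463336, plus strand) had 0 fragments in all 5 control WT libraries, which allows a level of up to 0.00559 FPKM over the group by the floor of 3 fragments (0.00687 FPKM by the exact interval), and 3 fragments in the TSP-1 null group. On CDAHFD it read 0.069, 0.028, 0.052, 0.027 and 0.041 FPKM in WT and 0.016, 0, 0.098, 0.098 and 0.065 FPKM in TSP-1 null. In WT it was at least 7.72-fold higher on CDAHFD, counted against the floor of 3 fragments over the control group, while the exact interval of its fragment ratio began at 5.78. The fragment ratio in TSP-1 null was 10.4 (3.23 to 53.2). Igf2bp3 (ENSMUSG00000029814.8, chr6:49085221-49214954, minus strand) ranged from 0 to 0.071 FPKM on the control diet and from 0.013 to 0.148 FPKM on CDAHFD. Its diets overlapped in both genotypes, with fragment ratios of 2.71 (1.40 to 5.58) in WT and 1.62 (0.652 to 4.24) in TSP-1 null.

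**Figure D1:**
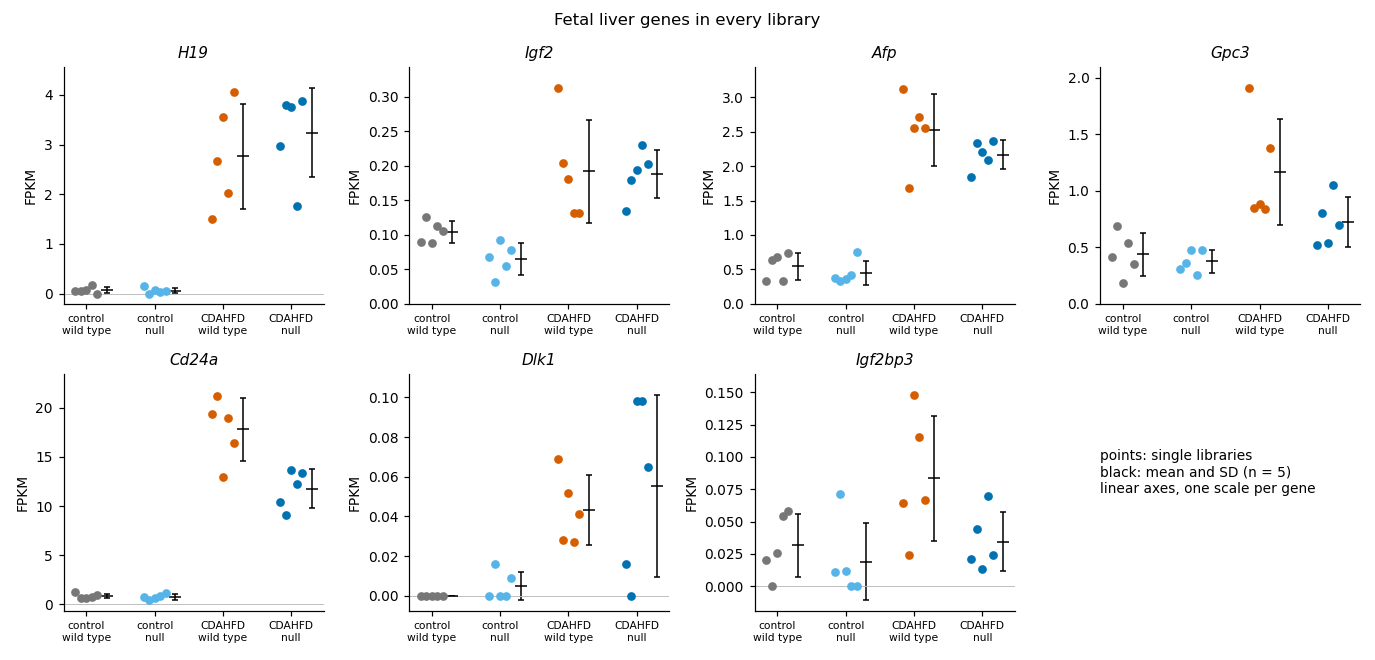
FPKM (linear axis, 1 scale per gene) of the 7 genes in each of the 20 libraries, as points by diet and genotype, with the mean and SD of 5 libraries in black. Cd24a reaches 21.25 FPKM and H19 4.05 FPKM on CDAHFD, while Dlk1 and Igf2bp3 stay under 0.15 FPKM.

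The differences were then set on one scale, the log2 of FPKM plus 0.1, with limma fitted to all 4 groups. CDAHFD against the control diet gave log2FC values (log2 fold change) of 4.25 (SE 0.21) for Cd24a, 4.07 (SE 0.31) for H19, 2.06 (SE 0.22) for Afp and 1.25 (SE 0.27) for Gpc3 in WT. In TSP-1 null the values were 4.43 for H19, 3.84 for Cd24a, 2.09 for Afp and 0.78 for Gpc3, with the same errors. The order was H19 and Cd24a, which lay within their errors of each other in WT, then Afp, then Gpc3. Added 0.1 makes these values smaller than the ratios of FPKM. Of the genes that passed the filter this was largest for H19, whose log2FC in WT ran from 1.77 with 1 added to 5.53 with 0.01 added. In the fit without the filter the other 3 genes gave 0.48 (Igf2), 0.51 (Dlk1) and 0.46 (Igf2bp3) in WT, while TSP-1 null gave 0.81, 0.51 and 0.19 in the same order. The added 0.1 weighed even more on Dlk1, whose mean FPKM in TSP-1 null was 11.1 times higher on CDAHFD.

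Those values are to be read against the rest of the table, where the median gene was also above 0. Its log2FC was 0.53 (WT) and 0.50 (TSP-1 null), so Gpc3 in TSP-1 null stood only 0.28 above the median, while H19 stood 3.54 (WT) and 3.94 (TSP-1 null) above it. The thresholds set for all genes (FDR under 0.05 and log2FC above 0.58 in size) were passed as higher by 44.1% of all genes (WT) and 41.9% (TSP-1 null), and by 4 of the 4 members tested in both genotypes. Nothing is read from the members' count, since they were chosen on these values and H19 passed the filter through the 10 CDAHFD libraries alone. Under median-of-ratios scaling Gpc3 in TSP-1 null missed them. The diets did not overlap for 6 of the 7 members in WT and for 5 of 7 in TSP-1 null, the 4 members tested being among them in both. Of the tested genes 50.5% and 52.7% were apart in the same direction, shares that leave out genes below the filter. H19 ranked 107 and Cd24a 83 by log2FC among 14524 genes in WT, Afp 1469 and Gpc3 3143. Median-of-ratios scaling brought the median gene to -0.02 in both genotypes, which left H19 at 3.66 and 4.11, Cd24a at 3.71 and 3.35, Afp at 1.55 and 1.62 and Gpc3 at 0.76 and 0.34. Under quantile normalization Gpc3 was at 0.12 in WT and turned to -0.32 in TSP-1 null, while H19, Afp and Cd24a kept their direction.

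**Figure D2:**
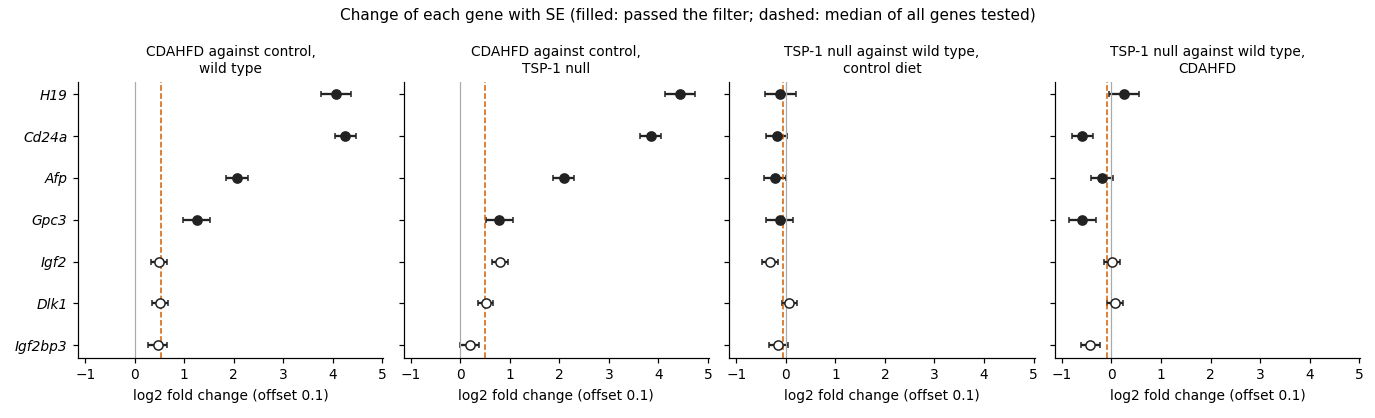
Log2 fold change (x axis, log2 of FPKM plus 0.1, with SE) of the 7 genes in each of 4 comparisons, filled where the gene passed the filter, with the median of all genes tested as a dashed line. H19 and Cd24a stand near 4 in both diet comparisons, Gpc3 in TSP-1 null (0.78) is near the median (0.50) and turns negative under quantile normalization, and the genotype values lie between -0.59 and 0.25.

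Between the genotypes H19, Cd24a and Afp differed less than between the diets, which did not hold for every member. On the control diet the log2FC of TSP-1 null against WT lay between -0.22 (Afp) and -0.11 (H19) for the 4 genes tested, with errors of 0.21 to 0.31. On CDAHFD it was -0.59 for Gpc3 (SE 0.27), -0.59 for Cd24a (SE 0.21), -0.19 for Afp (SE 0.22) and 0.25 for H19 (SE 0.31), around a median of -0.10 over all genes. With limma 0 of 4 genes met the thresholds on the control diet, where 4.77% of all genes did, 0 of 4 on CDAHFD (0.496% of all genes) and 0 of 4 in the test of the diet effect between genotypes (0.647%). At an unadjusted p under 0.05 these counts were 0, 2 (Gpc3 and Cd24a) and 0 of 4, where 27.3%, 17.2% and 15.1% of all genes lay, and they are no test of the members. No member separated the genotypes fully. Of all genes 2.33% were higher and 6.69% lower in every TSP-1 null library on the control diet, and 0.847% and 4.13% on CDAHFD. Both Gpc3 and Cd24a overlapped between the genotypes, and the ratio of their fragments in TSP-1 null to WT on CDAHFD was 0.625 (0.517 to 0.755) and 0.665 (0.628 to 0.703). For Igf2bp3 the ratio on CDAHFD was 0.399 (0.198 to 0.761), farther from 1 than its diet ratio in TSP-1 null. For Igf2 the ratio on the control diet was 0.621 (0.397 to 0.960), with 4 of the 5 TSP-1 null libraries below all WT libraries. For Afp on CDAHFD it was 0.853 (0.747 to 0.973). For H19 on CDAHFD it was 1.16 (1.04 to 1.29), all of them intervals that cover counting error and not the spread between mice. The summed FPKM of 10 cholangiocyte markers moved the same way as Cd24a, from 23.9 to 32.3 on the control diet to 312 to 513 in WT and 202 to 386 in TSP-1 null on CDAHFD. Of these markers 7 passed the filter, with a median log2FC of 2.77 in WT, and a sum weighs its most abundant genes most. Spp1, which is in the list, was also among the genes most like Cd24a over the 20 libraries (r = 0.99). The part of these markers in the result was not tested. In whole liver, more cells of a type and more RNA per cell cannot be told apart.

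Whether the members rise and fall together from mouse to mouse was tested within the CDAHFD groups, a measure that the choice of genes is not known to have used. Each gene was centred on its own group, and the 5 members with at least 3 fragments in each of the 10 libraries gave 10 pairs. None passed (exact permutation test, 14400 arrangements within groups, Benjamini-Hochberg over 10 pairs): r ran from -0.54 to 0.60, 5 pairs were positive and 5 negative, 0 had an unadjusted p under 0.05, and the smallest p was 0.111 (adjusted p = 0.582), for Igf2 with Gpc3 (r = 0.60, rho = 0.48, exact p for rho = 0.197, n = 10), whose r was 0.16 without the 2 libraries farthest from the median of Igf2. H19 with Igf2 gave r = -0.54 (exact p = 0.159) and rho = -0.45 (exact p = 0.243), and r was 0.25 without the 2 libraries farthest from the median of H19. The r values without 2 libraries kept the deviations from group means over all 5 mice. With the groups centred again, r for H19 with Igf2 was -0.18 without WT replicate 1 and -0.47 without TSP-1 null replicate 4. WT replicate 1 on CDAHFD had the highest Igf2, Afp, Gpc3 and Dlk1 of its group and the lowest H19 (1.504 FPKM), and TSP-1 null replicate 4 had the highest Igf2 and Gpc3 of its group and the lowest H19 (1.77 FPKM).

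The genes around each member were read next, taking all 125 genes that start within 250 kb of the body of a member, 28 of them tested. On CDAHFD 12 of the 28 rose past both thresholds in WT and 10 in TSP-1 null, against 44.1% and 41.9% of all genes. These counts include H19, itself a member, which starts within 250 kb of the body of Igf2. As H19 was chosen on its values, nothing is read from them. Afp lies in a cluster of albumin family genes, and of its 6 tested neighbours none reached the fold threshold in WT, although 4 had an FDR under 0.05: Alb (serum albumin), the nearest tested gene upstream, had a log2FC of -0.13 (SE 0.14) in WT and Afm (afamin), the nearest downstream, -0.29 (SE 0.11). No neighbour of Afp, Gpc3 or Cd24a met both thresholds in limma in any of the 4 comparisons, and at an unadjusted p under 0.05 the counts in WT on CDAHFD were 4 of 6, 1 of 2 and 0 of 4. In TSP-1 null by diet these counts were 1, 1 and 0, between the genotypes on the control diet 2, 0 and 0, and on CDAHFD 1, 0 and 0. Of all genes 75% (WT) and 73.6% (TSP-1 null) lay there by diet, and 27.3% (control diet) and 17.2% (CDAHFD) by genotype. The nearest tested genes of Gpc3 were Gm14586 upstream (0.51) and Gpc4, another glypican gene, downstream (0.14), and that of Cd24a was 1700021F05Rik (0.21). Around H19 the nearest tested gene, Mrpl23 (a mitochondrial ribosomal protein, 45.3 kb from the start of H19), had 0.5798 (SE 0.0681) in WT, just short of the fold threshold. Beyond it Gm14492 rose by 1.84 (FDR 2.22e-06), Lsp1, a leukocyte protein, by 2.91 (FDR 8.83e-12) and Ctsd, the lysosomal protease cathepsin D, by 2.06 (FDR 3.23e-12) on the log2 scale in WT. Around Igf2bp3 the largest change was that of Gpnmb, a glycoprotein of lipid-laden macrophages, at 8.85 (FDR 7.43e-16), while Malsu1, which overlaps Igf2bp3 on the other strand, had 0.12. Ccdc126, Tmem176a and Tmem176b also rose near Igf2bp3 (0.67, 1.66 and 1.84), and Tra2a, an RNA splicing factor and the nearest tested gene upstream, was lower in TSP-1 null on the control diet.

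**Figure D3:**
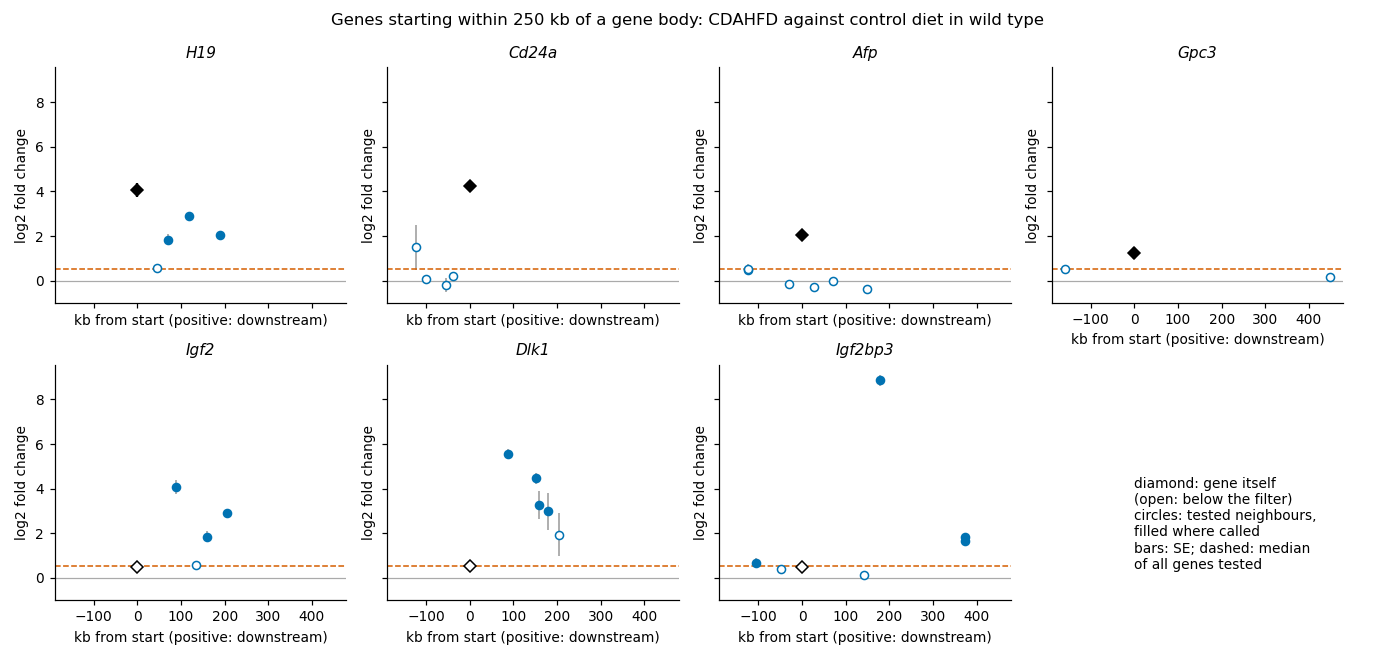
Log2 fold change with SE (y axis) of each tested gene that starts within 250 kb of the body of a member against its distance in kb from the start of that member, positive downstream, for CDAHFD against the control diet in WT, with the member itself as a diamond at 0. The neighbours of Afp, Cd24a and Gpc3 are open (no call), and those of Dlk1 reach 5.55 (Meg3). H19, a member, is also among the neighbours of Igf2. Dlk1 itself is at 0.51, a value made small by the amount added to FPKM before the log. In WT it had 23 fragments on CDAHFD against 0 on the control diet, and the exact interval of their ratio began at 5.78.

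The neighbourhood of Dlk1 held a cluster of noncoding RNAs that rose on CDAHFD, while Dlk1 itself stayed at a trace. Dlk1 is the paternally read protein gene of an imprinted cluster whose maternal chromosome gives the long noncoding RNAs Meg3, Rian and Mirg, and on CDAHFD the FPKM of each of these RNAs was above that of Dlk1. Meg3 (88.2 kb from the start of Dlk1) read 0.033 to 0.118 FPKM in the 10 control libraries. On CDAHFD it read 12.4, 3.91, 8.22, 7.51 and 4.64 FPKM in WT and 1.83, 2.38, 2.52, 1.93 and 3.16 FPKM in TSP-1 null. Its log2FC with CDAHFD was 5.55 (SE 0.24, FDR 5.68e-13) in WT and 3.78 (FDR 7.81e-11) in TSP-1 null, with no overlap between the diets. Rian (151 kb from the start of Dlk1) read 5.11, 1.41, 3.26, 2.07 and 1.76 FPKM in WT and 0.746, 1.21, 0.993, 0.728 and 1.10 FPKM in TSP-1 null on CDAHFD, against 0.009 to 0.026 FPKM on the control diet. It rose by 4.46 (FDR 2.44e-11) in WT and by 3.09 (FDR 4.38e-09) in TSP-1 null. Mirg did not pass the filter and had mean FPKM of 0.519 (WT) and 0.215 (TSP-1 null) on CDAHFD, against 0.0044 and 0 on the control diet. The rows of the small RNA genes Mir1188 and Gm24564, annotated within the same stretch, were called higher in WT as well (FDR 0.00012 and 0.00315), on mean levels of 0.986 and 1.015 FPKM. Such levels can rest on few fragments, as Mir483, another small RNA row, read 0.876 FPKM on 1 fragment. Libraries of long poly(A) RNA do not measure mature small RNAs, and the source of these fragments was not tested.

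Meg3 and Rian were also the 2 of 85 tested companion genes that differed between the genotypes on CDAHFD. Both were lower in the libraries labelled TSP-1 null, as were 0.33% of all genes. Every WT library lay above every TSP-1 null library for both, as did the 4.13% of all genes given above. Meg3 was lower in TSP-1 null by a log2FC of -1.501 (SE 0.24, FDR 0.0025) and Rian by -1.29 (SE 0.26, FDR 0.0186). The diet effect on Meg3 differed between the genotypes (interaction log2FC -1.76, SE 0.33, FDR 0.0183), as it did in that direction for 0.31% of all genes, while for Rian that test gave FDR 0.0787. H19, also an imprinted noncoding RNA of the maternal chromosome, had a difference of 0.25 in the other direction, and Dlk1 0.07. With the 2 CDAHFD groups alone in the fit neither gene passed. Rian was lost with 0.01 added (-1.37) and also without WT replicate 3 (log2FC -1.19), without TSP-1 null replicate 1 (-1.22) or without replicate 4 (-1.21). WT replicate 1, which had the highest Igf2, Afp and Gpc3, also had the highest Meg3, Rian and Mirg, and without it the Meg3 difference was -1.28. The summed FPKM of 10 stellate cell markers was 286 to 558 in WT and 293 to 403 in TSP-1 null on CDAHFD, and its part in the difference was not tested.

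**Figure D4:**
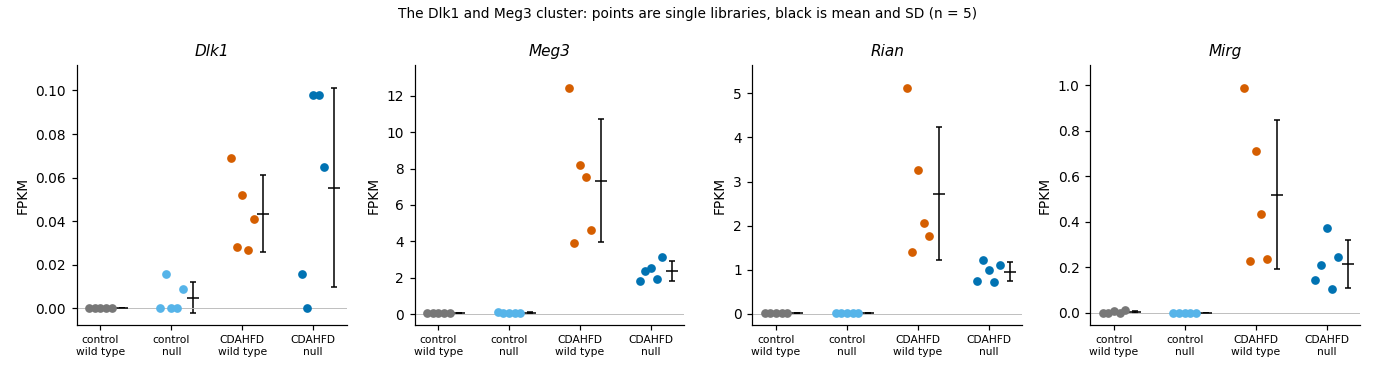
FPKM (linear axis, 1 scale per gene) of Dlk1, Meg3, Rian and Mirg in each of the 20 libraries, as points by diet and genotype, with the mean and SD of 5 libraries in black. Meg3 lies between 3.91 and 12.4 FPKM in WT on CDAHFD and between 1.83 and 3.16 FPKM in TSP-1 null, while Dlk1 stays under 0.1 FPKM.

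The members were then placed among 105 companion genes of 5 lists (85 tested), which were drawn up by function. In WT 48 of the 85 rose and 3 fell on CDAHFD, against 44.1% and 4.62% of all genes, and in TSP-1 null 47 rose and 7 fell, against 41.9% and 4%. Under median-of-ratios scaling the split was 34 higher and 20 lower (WT) and 35 higher and 16 lower (TSP-1 null), against 3130 higher and 2268 lower (WT) and 3061 higher and 2003 lower (TSP-1 null) of 14307 genes in all. The list of other fetal and progenitor genes stood out by its size of change, its median log2FC being 3.25 (WT) and 2.99 (TSP-1 null) against 0.53 and 0.50 for all genes. In each genotype 17 of its 18 tested members rose, and Epcam, Sox9 and Spp1 of this list are also among the cholangiocyte markers. Among them Spp1 (osteopontin) rose by 4.76, Epcam, a surface protein of biliary and progenitor cells, by 4.54, Lpl (lipoprotein lipase) by 4.31, Prom1, a surface protein of progenitor cells, by 3.38, Pkm, the muscle-type pyruvate kinase of fetal tissues, by 3.09, Scd2, a fatty acid desaturase, by 2.84 and Sox9, a transcription factor of bile duct cells, by 2.75 in WT, with FDR values from 2.39e-14 to 4.04e-10. Tff3, a secreted trefoil peptide, fell by 3.30 in WT and by 4.62 in TSP-1 null. Between the genotypes on the control diet 5 companion genes were higher in TSP-1 null (1.74% of all genes) and 1 lower (3.03%): Tff3 (2.13, FDR 0.0207), Spink1 (1.20, FDR 0.0476), Foxa3 (0.70, FDR 0.0202), Igfbp1 and Igfbp2 were higher and Jag1 (-0.91, FDR 0.003) lower. These lists were put together with earlier results of these data known, so their direction is no independent evidence.

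The other lists followed the whole table more closely. Of 15 imprinted genes tested, 10 rose and 1 (Slc38a4, an amino acid transporter) fell in both genotypes, with medians of 0.89 (WT) and 1.06 (TSP-1 null). Besides Meg3 and Rian the changes included Cdkn1c, a brake on the cell cycle, at 2.11 (FDR 9.91e-10), Airn at 2.14 (FDR 4.77e-08), Grb10, an inhibitor of insulin and growth factor signalling, at 2.01 (FDR 4.45e-09) and Plagl1 at 1.98 (FDR 8.32e-08) in WT. Mest met the thresholds in TSP-1 null (0.68, turning to -0.38 under quantile normalization) and Gnas in WT (0.64, turning to -0.34), and neither met the thresholds in the interaction test. Peg3, which had -0.55 in WT, did not meet the fold threshold, and Peg10 did not pass the filter.

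The known regulators of the postnatal switch were read next. Their changes are not set against those of the members, which were chosen on their values. Zbtb20, Zhx2 and Zfhx3, repressors of Afp or of H19, Afp and Gpc3 together, had log2FC values of 0.45, -0.05 and 0.48 (WT) and of 0.50, 0.33 and 0.64 (TSP-1 null), of which only Zfhx3 in TSP-1 null met the thresholds (FDR 0.000148), a value that turned to -0.14 under quantile normalization. Of the activators of the Afp promoter and enhancers Hnf4a had -0.14 and Nr5a2 -0.13 in WT, both short of the fold threshold. Of the 22 regulators tested 5 rose in WT, among them Dnmt3a (1.72), Dnmt1 (1.70), Hmga1 (1.64) and Trim28 (0.68), of which Dnmt1 and Dnmt3a encode the enzymes that copy and lay down DNA methylation. In TSP-1 null 6 rose, Ctcf (0.62), the insulator protein between H19 and Igf2, among them, and Tbx3, a factor of fetal hepatoblasts, fell by 0.66. The list medians (0.21 and 0.16) were below those of all genes (0.53 and 0.50). Lin28b, which guards the fetal programme, had 0 fragments in all 20 libraries, and Igf2bp1, the sister gene of Igf2bp3, had 8 in all.

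Among the receptors, binding proteins and RNA partners of IGF2, 9 of 16 tested genes rose and 1 fell in WT, and 6 rose and 4 fell in TSP-1 null. Igf1r, the signalling receptor, rose by 1.54 and Igf2r, which clears IGF2 from the cell surface, by 0.89 in WT, and by 1.46 and 1.18 in TSP-1 null. Igf2bp2, the adult member of the Igf2bp family, rose by 1.34 in TSP-1 null and by 1.02 in WT, where quantile normalization turned it to -0.17. Igfbp7 (2.36) and Htra1 (2.78), a protease that cuts binding proteins, had the lowest FDR values of this list in WT. Igf1, the main growth factor of the adult liver, had -0.51 in WT, short of the fold threshold, and fell by 0.62 in TSP-1 null. Igfals, which holds IGF1 in the blood, fell by 0.95 and 1.03. On the control diet Igfbp1 (1.98, FDR 0.00485) and Igfbp2 (1.20, FDR 0.00556) were higher in libraries labelled TSP-1 null.

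The relatives and partners of Gpc3, Dlk1, Cd24a and Afp gave 8 higher of 15 tested in WT and 9 in TSP-1 null. The other glypicans were not uniform: Gpc6 rose by 1.58 and Gpc1 by 0.99 in WT, while Gpc4, whose gene lies next to Gpc3, had 0.14. Notch ligands and receptors, to which Dlk1 is related, rose in part: Jag1 by 1.42, Notch3 by 1.28, Dll1 by 0.97 (at -0.09 under quantile normalization) and Notch2 by 0.88 in WT, while Dll4 had -0.06. Siglecg and Selp, which bind CD24, rose by 1.73 and 0.63 in WT, Selp turning to -0.63 under quantile normalization. The relatives of Afp, namely Alb, Afm and Gc (the vitamin D binding protein), had -0.13, -0.29 and -0.13.

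**Figure D5:**
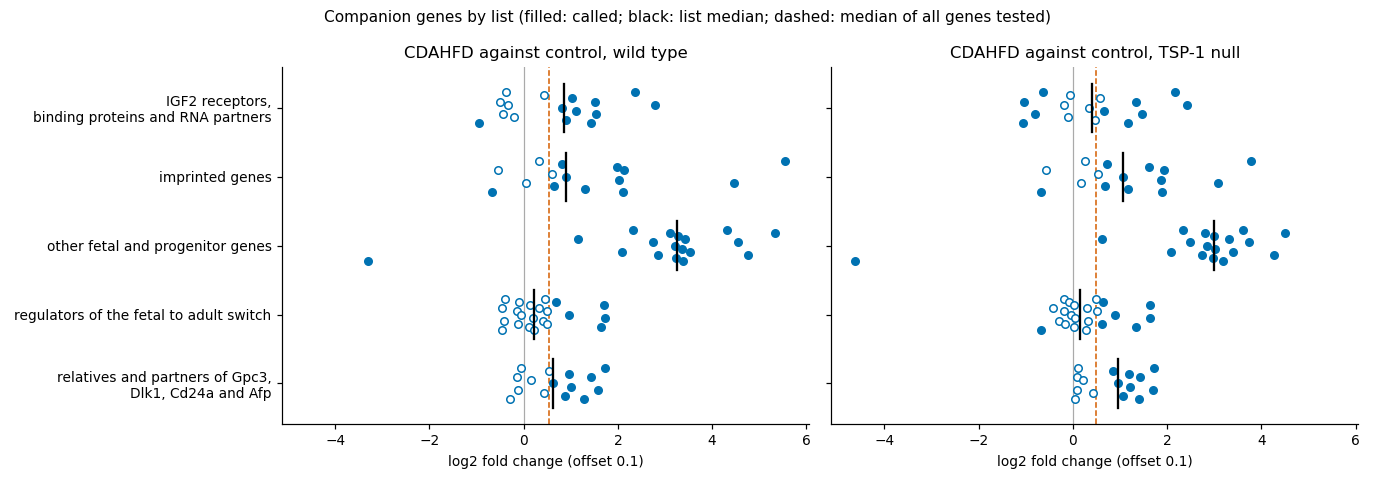
Log2 fold change (x axis, log2 of FPKM plus 0.1) of each tested companion gene by list for CDAHFD against the control diet in WT (left) and TSP-1 null (right), filled where called, with the list median in black and the median of all genes dashed. The list of other fetal and progenitor genes has medians of 3.25 and 2.99, and that of the regulators 0.21 and 0.16; several single values, such as those of Gnas, Selp and Igf2bp2 in WT, turn negative under quantile normalization.

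Markers of several cell types other than hepatocytes, but not of all, moved with the diet. In WT 44.1% of all genes rose and 4.62% fell on CDAHFD, shares to set beside the counts that follow. In WT 10 of 10 stellate cell, 9 of 10 T and B cell, 6 of 7 tested cholangiocyte, 6 of 10 macrophage, 6 of 6 tested mesothelial, 4 of 4 tested neutrophil and 9 of 9 tested proliferation markers rose on CDAHFD, while 2 of 10 macrophage and 2 of 10 hepatocyte markers fell and 3 of 10 endothelial markers rose. Of 10 markers listed for each type, only 6 mesothelial and 4 neutrophil ones passed the filter. The mesothelial list includes Krt8 and Krt18, keratins that are not particular to mesothelial cells. Its summed FPKM was already 189 to 225 on the control diet. Of the erythroid markers, which fetal liver would hold, 0 of 7 tested rose and 2 fell. The median log2FC in WT was 0.02 for the endothelial and -0.13 for the erythroid markers, against 0.53 for all genes. Ly6g, a neutrophil marker, was at 0 in all WT libraries, as was Mpo, another one, in all control libraries. The part of these cells in the levels of the members was not tested.

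Last, the gene table was searched for the patterns most like each member, as a description with no test. Over all 20 libraries the tested genes with the highest Pearson r to log2 levels of H19 were Gp49a, Tbc1d24 and Trpm4 (0.98 each), and those to Cd24a were Elovl7, Emb and Spp1 (0.99 each). For Afp they included Gsap and Limd2 (0.98), and for Gpc3 Igfbp6, Igfbp5 and Inpp5a (0.91). Igf2 was closest to Fam98a (0.92), Dlk1 to Emc8 (0.88) and Igf2bp3 to 2500004C02Rik (0.79). All of these values include the step between the diets. Within the CDAHFD groups, over deviations from the group mean in 10 libraries, H19 was closest to Cd36 (r = 0.94), the fatty acid transporter that is also a receptor of TSP-1, then to Slc25a18 (0.92) and Metap2 (0.91), each the top of a ranking of 14524 genes.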

How the data were processed

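Total liver RNA was enriched for poly(A) RNA, made into directional libraries and sequenced in pairs of reads. The authors deposited 1 table of FPKM values, per the labels made with STAR 2.5.2 and featureCounts of Subread 1.5.1. The submitters' notes name the build GRCh38, which is a human one, while 99.8% of the 37607 gene identifiers shared with GENCODE M21 overlap there, so coordinates are GRCm38. The strand setting of the counting is not given in the sources used here. The deposited series text and the study's methods name different right lobes of the liver. The FPKM values were whole multiples of a fragment, which gave fragment counts per gene and totals of 15641545 to 23276322 per library; these served for depth and intervals only.

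Values were tested as log2(FPKM + 0.1) with limma 3.58.1 (R 4.3.3, trended eBayes, all 4 groups) over the 14524 genes that exceeded FPKM 0.5 in 5 or more libraries, and called at FDR under 0.05 and log2FC above 0.58 in size. Fold changes are on that offset scale. The 5 replicates of a group are separate mice. Replicate numbers did not pair the libraries: of 30 same-number pairs the correlations of deviations ran from -0.13 to 0.08. Intervals are 95% exact ones. The members and the lists were chosen with earlier results of these data known. All 7 members are named, and of companion genes those by role and up to 5 called with the lowest FDR per list, with some called genes added after their values were seen. Kcnq1ot1 and Ahsp were not matched. The pair test was adjusted over the 10 pairs with enough fragments. The fits were tested on simulated data. Alternatives changed the offset, filter, scaling, groups in the fit, trend, replicate block and each replicate. Figures used Python 3.11.15 and matplotlib 3.10.9. Some named items are not reported here.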

Additional observations from a re-analysis of the deposited data

Results flagged for a closer look

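Within groups of 5, 2 of the 28 sets of member values held a library far from the others, where chance gives about 1 in 20. Afp was highest in TSP-1 null replicate 5 on the control diet, at 0.759 FPKM (32 fragments), against 0.338 to 0.42 in the other 4. Igf2bp3 was highest in TSP-1 null replicate 2 on the control diet, at 0.071 FPKM, which is 7 fragments. Meg3 was picked out because the effect of CDAHFD differed between the genotypes, with an interaction log2FC of -1.76 (SE 0.33, limma FDR 0.0183); the diet effect was 5.55 in WT and 3.78 in TSP-1 null, and all 5 TSP-1 null libraries on CDAHFD lay below all 5 WT libraries.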

How the results depend on the processing

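The counts of members meeting the thresholds (4, 4, 0 and 0) ran from 4 to 4 for both diet comparisons and from 0 to 0 for both genotype comparisons when 1 replicate was left out. They were 3 for both diet comparisons with 1 added or under quantile normalization, and 3 in TSP-1 null under median-of-ratios scaling, Gpc3 being the gene lost each time. The companion counts then ran from 50 to 53 (51 in WT by diet), 48 to 55 (54 in TSP-1 null by diet), 3 to 8 (6 by genotype on the control diet), 1 to 2 (2 by genotype on CDAHFD) and 1 to 1 (interaction), and the pairs from 0 to 0. By genotype on the control diet the count was 3 without WT replicate 3 or TSP-1 null replicate 1, 3 with only the 2 groups compared and 11 with no fold change threshold. By genotype on CDAHFD it was 1 with 0.01 added, 1 without TSP-1 null replicate 1 or replicate 4 and 0 with only the 2 groups compared. The causes were not tested. Quantile normalization reversed Gpc3 (-0.32), Mest (-0.38), Snrpn (-0.0259), Zfhx3 (-0.14) and Siglecg (-0.11) in the TSP-1 null diet comparison and Gnas (-0.34), Snrpn (-0.0174), Igf2bp2 (-0.17), Dll1 (-0.0929) and Selp (-0.63) in the WT one. As a replicate block the numbers, which do not pair the libraries, moved no member count and gave companion counts of 51, 54, 7, 2 and 1 and 0 pairs. With under 20 fragments in a library, as for Igf2bp3, Dlk1, and H19 and Igf2 on the control diet, only large differences could be seen. Igf2 was also under 20 fragments in some CDAHFD libraries. Afp, Gpc3 and Cd24a were not under it throughout the control diet, but fell below it in part of those libraries.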
